A study of Mus musculus with 17 samples.

Results

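The adipocyte and lipid transfer genes are 10 genes of fat cells and of lipid handling, namely Adipoq, Fabp4, Lpl, Cd36, Plin2, Cfd, Pltp, Lipe, Abca1 and Apoe. Their probe sets were found by symbol in the array annotation. Of the 10 genes 9 were carried by a probe set, with 18 of the 22626 probe sets tested and 9 of the 12393 genes named. No probe set bore the symbol Cfd, the gene of adipsin, in the annotation used here, so no value is given for it. Fabp4 had 4 probe sets, Cd36 and Abca1 3 each, Lpl and Pltp 2 each, and the other members 1 each. Each gene was represented by its probe set with the highest mean over the 17 arrays.

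RNA of whole lungs was hybridized to 17 Affymetrix arrays, 1 mouse per array. The mice were males of 21 to 27 g, either wild-type C57BL/6J or NOS2-/-, a line described as lacking inducible nitric oxide synthase from birth, with no age stated in the labels or methods. They received saline or Escherichia coli lipopolysaccharide (LPS, endotoxin) at 20 mg/kg into a vein. Lungs of 4 wild-type mice and of 1 NOS2-/- mouse were taken at 22 h after saline. Each genotype had 3 LPS mice at 7 h and 3 at 22 h. The study asked which lung genes answer endotoxin differently in the 2 genotypes. All saline mice were taken at 22 h, so in the comparisons of LPS at 7 h with saline the treatment and the time both differ.

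Adipocytes store fatty acids as triglyceride in lipid droplets and release them by lipolysis, and they secrete hormones such as adiponectin. Lung tissue holds few adipocytes outside the fat around airways and vessels, but capillary endothelium, alveolar macrophages, type 2 cells and lipofibroblasts take up, store and pass on lipid. Lipids move between cells and plasma lipoproteins through lipoprotein lipase, which frees fatty acids from triglyceride, through the scavenger receptor CD36, which takes them up, and through transfer and efflux proteins such as PLTP, ABCA1 and apolipoprotein E. In whole-lung RNA, fewer cells of a type and less RNA per cell cannot be told apart.

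Facts of the samples bear on these values. The probe set of Nos2, the targeted gene, was not lower in the mice labelled NOS2-/-. It read 8.93 to 9.06 in wild-type mice and 8.85 to 9.0 in mice labelled NOS2-/- at 7 h after LPS, and 8.19 to 8.80 against 8.99 to 9.25 at 22 h. No source used here states where the probe set lies relative to the disrupted part of the gene, so it does not check the labels, and the genotypes below are those of the labels. Replicate 2 of the wild-type mice 22 h after LPS stood apart, with a correlation over probe sets of 0.955 and 0.949 with replicates 1 and 3, which correlated at 0.996. The 1 NOS2-/- saline mouse also stood apart. Its mean level over 13 skeletal muscle genes was 9.17 against 7.02 to 7.13 in wild-type saline mice, over 11 squamous epithelium genes 10.09 against 7.69 to 7.78, over 19 adipocyte genes 9.42 against 8.86 to 9.14, and over 5 brown fat genes 8.80 against 7.73 to 8.05. All levels are log2 signals, and comparisons of means were made with limma over all probe sets with Benjamini-Hochberg adjustment, a gene being called at an adjusted p under 0.05.

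The promoters of Adipoq, Pltp, Apoe and Plin2 are shown because these are the 4 members whose change between 7 h and 22 h after LPS differed between the genotypes. Each runs 5′ to 3′ from 250 bases before to 50 bases after an annotated RefSeq start (GRCm38.p6). Capitals mark, on either strand, CCAAT (the CCAAT box), the letters CACGTG of an E-box, the letters TATAAA of a TATA box, or the nuclear receptor half-site AGGTCA.
Adipoq, chr16:23146286-23146585, plus strand: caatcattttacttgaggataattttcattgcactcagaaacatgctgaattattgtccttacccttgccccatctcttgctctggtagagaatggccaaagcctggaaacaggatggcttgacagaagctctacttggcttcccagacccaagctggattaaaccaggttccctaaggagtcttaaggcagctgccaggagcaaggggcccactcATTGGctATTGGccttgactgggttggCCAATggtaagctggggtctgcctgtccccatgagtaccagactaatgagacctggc
Pltp, chr2:164857659-164857958, minus strand: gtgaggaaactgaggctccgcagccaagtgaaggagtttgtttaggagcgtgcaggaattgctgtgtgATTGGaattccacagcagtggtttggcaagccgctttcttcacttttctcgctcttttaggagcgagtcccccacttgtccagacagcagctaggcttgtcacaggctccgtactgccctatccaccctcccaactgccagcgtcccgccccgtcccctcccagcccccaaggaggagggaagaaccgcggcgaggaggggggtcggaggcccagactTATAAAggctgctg
Apoe, chr7:19699139-19699438, minus strand: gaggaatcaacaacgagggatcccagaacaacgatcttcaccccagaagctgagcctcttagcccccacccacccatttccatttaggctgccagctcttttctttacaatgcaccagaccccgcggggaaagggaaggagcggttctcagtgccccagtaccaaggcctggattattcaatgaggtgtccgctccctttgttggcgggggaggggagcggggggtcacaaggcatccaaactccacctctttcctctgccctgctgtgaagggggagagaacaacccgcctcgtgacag
Plin2, chr4:86670010-86670309, minus strand: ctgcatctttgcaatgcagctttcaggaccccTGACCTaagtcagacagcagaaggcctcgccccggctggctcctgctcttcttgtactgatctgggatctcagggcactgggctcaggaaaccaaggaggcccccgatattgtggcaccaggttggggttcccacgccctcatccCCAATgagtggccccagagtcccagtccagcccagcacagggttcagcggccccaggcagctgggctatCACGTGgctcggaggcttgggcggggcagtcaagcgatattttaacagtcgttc

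Of the 10 members 8 had a promoter in the RefSeq table. A CCAAT box is in 37.4% of the 32851 promoters of that table, the half-site in 16.3%, the TATA box letters in 13.6% and the E-box in 7.15%. The Adipoq window held 3 CCAAT boxes within the last 34 bases before its start. Plin2 held a CCAAT box, a half-site and an E-box that spans the start, Pltp held a CCAAT box and, after its start, a TATA box, and the Apoe window shown, the outermost of 3 in the table, held none of the 4 motifs. Another Apoe window held 2 overlapping TATA boxes. A pair of these half-sites in direct repeat with 1 base or 4 bases between them, the arrangement read by PPAR and LXR receptors with RXR, was found in 0.0396% and 0.0152% of the promoters and in no window of a member. These matches describe letters and no binding was measured.

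**Figure D1:**
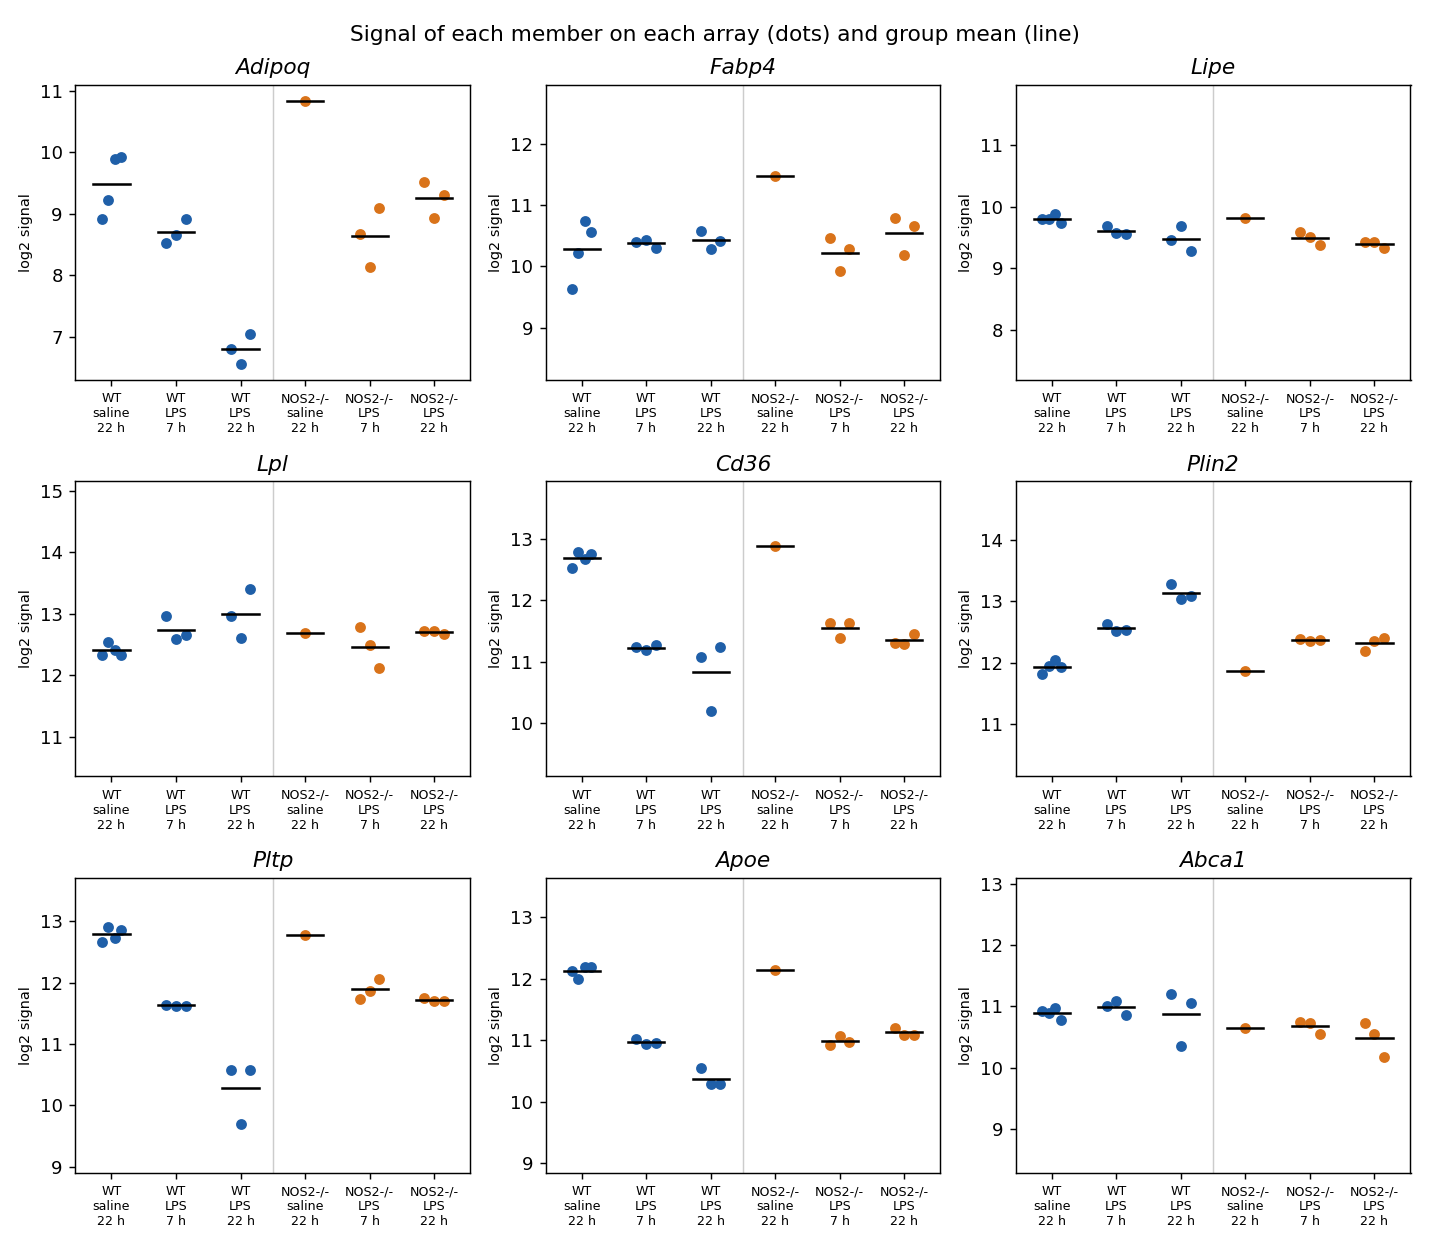
Log2 signal (y axis, 4.8 log2 units in every panel) of the 9 measured members in the 6 groups (x axis). Each dot is 1 mouse, blue for wild-type and orange for NOS2-/-, and the black line is the group mean. Adipoq of wild-type mice 22 h after LPS (6.56 to 7.04) lies below every other group, and the NOS2-/- saline mouse is highest for Adipoq and Fabp4.

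LPS lowered most members that changed. In wild-type mice at 22 h, Adipoq, Pltp, Cd36, Apoe and Lipe fell and Plin2 and Lpl rose, while Fabp4 and Abca1 did not pass the test. That is 5 of 9 lower and 2 of 9 higher, where 20% of all probe sets were lower and 12.8% higher. The median log2 fold change of the 9 members was -0.33, and that of all probe sets -0.00. At 7 h in wild-type mice 4 of 9 were lower (Adipoq, Pltp, Cd36 and Apoe, background 17.9%) and 1 was higher (Plin2, background 14.4%). In NOS2-/- mice against the 1 NOS2-/- saline mouse, 6 of 9 were lower at 22 h (background 16%) and 5 of 9 at 7 h (background 13.7%), and Plin2 alone was higher at both times (background 11.6% and 8.78%). The 2 wild-type comparisons share their saline mice, and the 2 NOS2-/- comparisons share the 1 saline mouse, whose spread the fit takes from the remaining groups. Marker genes of other cell types moved with the members in wild-type mice at 22 h. All 11 neutrophil genes measured were higher (median log2 fold change 3.05), 10 of 11 type 2 cell genes were lower (median -0.79) and 1 higher, 8 of 12 lipofibroblast and fibroblast genes were lower (median -1.38) and 1 higher, and of 10 alveolar macrophage genes 5 were lower and 4 higher. In NOS2-/- mice at 22 h all 11 neutrophil genes were higher (median 3.01). Of 11 type 2 cell genes 8 were lower and 1 higher, and 7 of 12 lipofibroblast and fibroblast genes were lower (medians -0.81 and -1.38). Their part in the changes of the members was not tested.

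Between the genotypes the members differed at 22 h. With LPS for 22 h, Adipoq, Pltp and Apoe were higher in mice labelled NOS2-/- than in wild-type mice and Plin2 was lower, which is 3 of 9 higher (background 9.63%) and 1 of 9 lower (background 6.81%). At 7 h limma called none of the 9, with 1 at an unadjusted p under 0.05 (Plin2) and 2.01% of all probe sets called. Fitted on the 2 groups alone, limma called 4 members at 7 h, with Cd36 and Pltp higher and Plin2 and Abca1 lower by 0.19 to 0.32 on the log2 scale. From 7 h to 22 h, 3 of 9 fell in wild-type mice (background 7.68%) and 1 rose (background 3.15%), and none was called in NOS2-/- mice, with 1 at an unadjusted p under 0.05 (Adipoq) and 7.81% of all probe sets called. The test of the difference between these 2 changes called 3 members higher in NOS2-/- mice (background 2.49%) and 1 lower (background 0.544%).

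**Figure D2:**
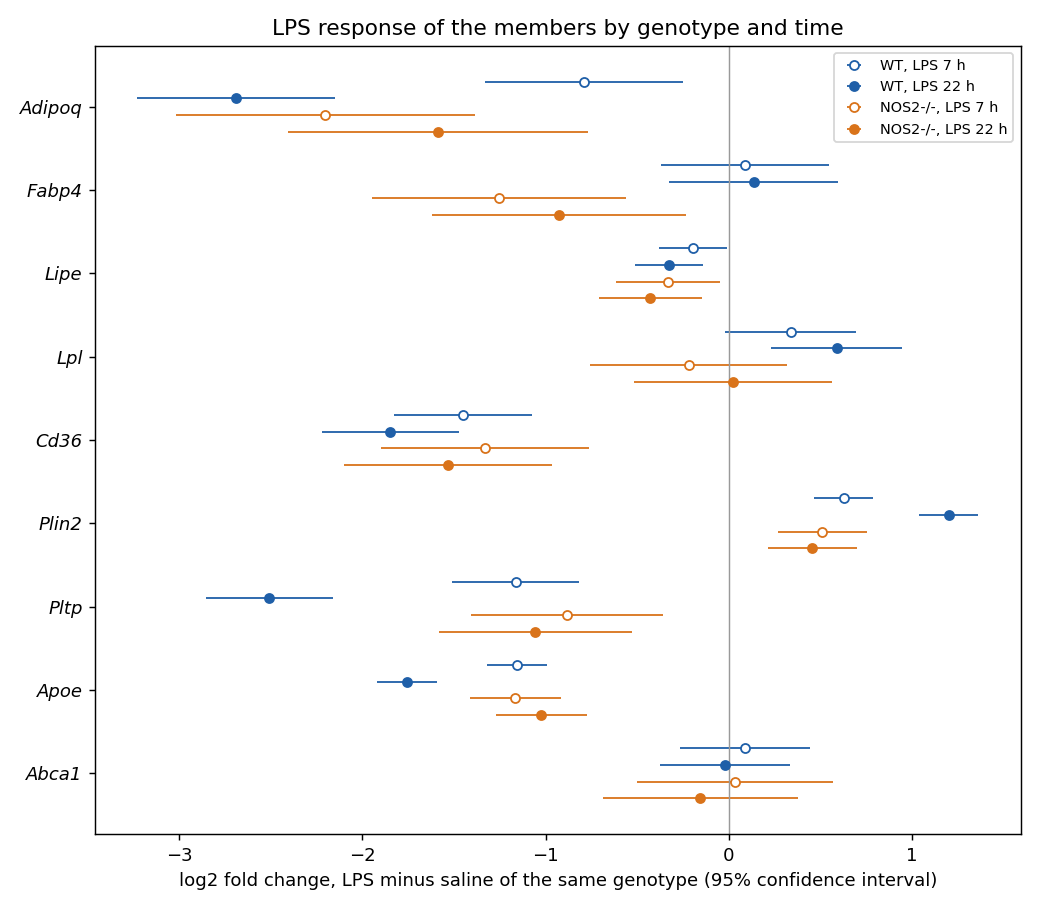
Log2 fold change (x axis) of each member (rows) in LPS mice minus saline mice of the same genotype, taken at 22 h, with 95% confidence intervals from limma. Blue marks wild-type and orange NOS2-/- mice, open points LPS at 7 h and filled points LPS at 22 h. Wild-type mice at 22 h are lowest for Adipoq (-2.69), Pltp (-2.51) and Apoe (-1.76) and highest for Plin2 (1.20).

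Adipoq, the gene of the adipocyte hormone adiponectin, fell in wild-type mice at both times. Wild-type saline mice read 8.91, 9.23, 9.89 and 9.92, wild-type mice 8.53, 8.66 and 8.91 at 7 h and 6.80, 6.56 and 7.04 at 22 h after LPS. The 22 h mice lay well below the others, and the lowest saline mouse and the highest 7 h mouse both rounded to 8.91. At 22 h the mean was 6.80 ± 0.24 (SD, n = 3) against 9.49 ± 0.50 (SD, n = 4) after saline, a 6.44-fold fall (log2 fold change -2.69, SE 0.25, adjusted p = 6.33e-07). At 7 h it was -0.79 (SE 0.25, adjusted p = 0.0253), and this call was lost when saline replicate 3 or 4 or LPS replicate 1 or 2 was left out (adjusted p 0.076 to 0.0974).

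In mice labelled NOS2-/- Adipoq read 10.84 in the saline mouse, 8.67, 8.14 and 9.10 at 7 h and 9.52, 8.94 and 9.30 at 22 h. The saline mouse lay above every wild-type mouse, and the times after LPS overlapped. Against that mouse Adipoq was lower by 4.6-fold at 7 h (log2 fold change -2.20, SE 0.38, adjusted p = 0.000557) and by 3.00-fold at 22 h (-1.59, SE 0.38, adjusted p = 0.00543). With the wild-type saline mice as the control the fall was -0.85 at 7 h (adjusted p = 0.015), and the change at 22 h was -0.24 (adjusted p = 0.522).

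At 22 h after LPS Adipoq was 5.46-fold higher in mice labelled NOS2-/- than in wild-type mice (log2 difference 2.45, SE 0.27, adjusted p = 3.39e-05), with no overlap. That difference ranked 22621 of 22626 probe sets from lowest to highest. At 7 h it was -0.06 (95% confidence interval -0.64 to 0.51, adjusted p = 0.9). From 7 h to 22 h Adipoq fell by 1.90 in wild-type mice (SE 0.27, adjusted p = 0.000323) and the change was 0.61 in NOS2-/- mice (adjusted p = 0.216), and these changes differed by 2.51 (SE 0.38, adjusted p = 0.00262). Its LPS response against each genotype's own saline mice differed by 1.10 (95% confidence interval 0.12 to 2.08, adjusted p = 0.227), which did not pass the test.

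**Figure D3:**
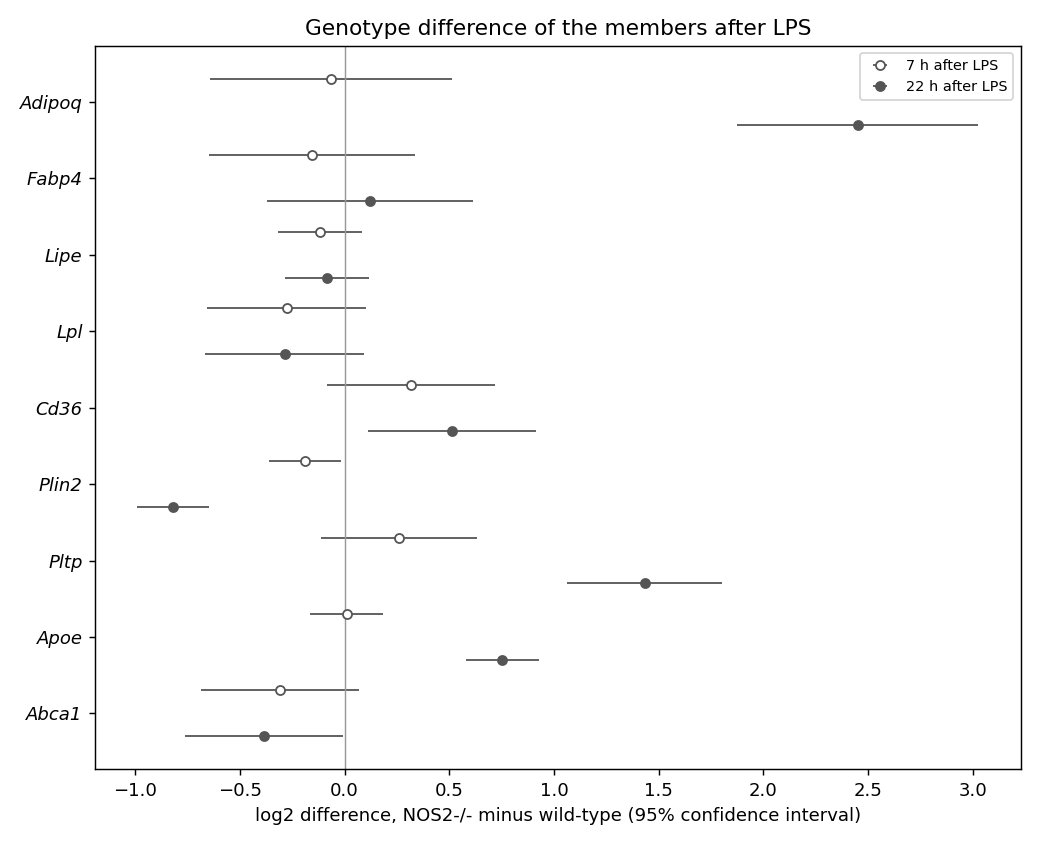
Log2 difference (x axis) of NOS2-/- minus wild-type mice for each member (rows), with 95% confidence intervals from limma, at 7 h (open) and 22 h (filled) after LPS. At 22 h Adipoq (2.45), Pltp (1.43) and Apoe (0.75) lie to the right of 0 and Plin2 (-0.82) to the left.

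Fabp4, a fatty acid chaperone of adipocytes that macrophages and endothelium also carry, did not follow Adipoq in wild-type mice. It read 9.64, 10.21, 10.74 and 10.56 after saline, 10.30 to 10.43 at 7 h and 10.28 to 10.57 at 22 h after LPS. The LPS mice lay within the saline range, and the log2 fold change at 22 h was 0.13 (95% confidence interval -0.32 to 0.59, adjusted p = 0.674). In mice labelled NOS2-/- Fabp4 read 11.47 after saline, 9.92 to 10.46 at 7 h and 10.18 to 10.79 at 22 h. The falls against that 1 mouse were -1.25 at 7 h (adjusted p = 0.0108) and -0.93 at 22 h (adjusted p = 0.0456). With the wild-type saline mice as the control they were -0.07 (adjusted p = 0.841) and 0.26 (adjusted p = 0.398). The call at 22 h against the 1 NOS2-/- saline mouse was kept in 6 of 13 alternatives. It was lost with array medians subtracted (-0.90), with the mean of the probe sets (-0.55), and without NOS2-/- replicate 2 (-0.745) or 3 (-0.99) at 22 h. The 4 Fabp4 probe sets were not alike, with correlations over the 17 arrays of 0.204 to 0.945, and 1 other probe set also fell at both times.

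Lipe, hormone-sensitive lipase, which cleaves diglyceride in lipolysis, changed little. It read 9.73 to 9.89 in wild-type saline mice and 9.45, 9.69 and 9.28 at 22 h after LPS, below every saline mouse. The fall was -0.33 (SE 0.09, adjusted p = 0.00861). It did not pass after quantile normalization (adjusted p = 0.0866) or when limma was fitted on only the groups compared (adjusted p = 0.077). In NOS2-/- mice the fall at 22 h was -0.43 (SE 0.13, adjusted p = 0.0245), and it did not pass after quantile normalization (adjusted p = 0.0944) or without replicate 3 at 22 h (adjusted p = 0.0646).

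Lpl, lipoprotein lipase, which is made by adipocytes, muscle and macrophages and works on the endothelial surface, rose in wild-type mice. It read 12.33, 12.54, 12.41 and 12.33 after saline and 12.97, 12.61 and 13.40 at 22 h after LPS, with every LPS mouse above the saline mice. The rise was 1.5-fold (log2 fold change 0.59, SE 0.17, adjusted p = 0.0126), and without LPS replicate 3 it was 0.38 (adjusted p = 0.0686). The other Lpl probe set gave 0.88 (adjusted p = 0.0117), but there the groups overlapped. LPS replicate 2 read 9.89 on it, below saline replicate 2 at 9.98. In mice labelled NOS2-/- Lpl read 12.68 after saline and 12.67 to 12.73 at 22 h after LPS, a change of 0.02 (95% confidence interval -0.52 to 0.56). The saline mouse and the LPS mice of this genotype all lay above every wild-type saline mouse. Over 13 alternatives, the wild-type saline mice as the control among them, the change ran from -0.06 to 0.30. The genotype difference in this response was -0.57 (adjusted p = 0.391), and -0.76 (adjusted p = 0.0488) without replicate 2 of the wild-type mice at 22 h.

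Cd36, the receptor for long-chain fatty acids and oxidized lipoproteins on capillary endothelium and macrophages, fell in both genotypes. Wild-type saline mice read 12.52, 12.78, 12.67 and 12.76, mice at 7 h after LPS 11.24, 11.19 and 11.27 and mice at 22 h 11.08, 10.20 and 11.24. Every LPS mouse lay below the saline mice, and replicate 2 at 22 h was the lowest. The falls were 2.73-fold at 7 h (log2 fold change -1.45, SE 0.18, adjusted p = 9.19e-06) and 3.60-fold at 22 h (-1.85, SE 0.18, adjusted p = 7.19e-07), and without replicate 2 the latter was -1.53 (adjusted p = 2.28e-10).

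Mice labelled NOS2-/- read 12.88 for Cd36 after saline, 11.39 to 11.63 at 7 h and 11.29 to 11.45 at 22 h after LPS. These were falls of 1.33 (SE 0.27, adjusted p = 0.00173) and 1.53 (SE 0.27, adjusted p = 0.000449) on the log2 scale. The genotype difference at 22 h was 0.51 (95% confidence interval 0.11 to 0.91, adjusted p = 0.0798) for this probe set and 0.14 and 0.16 (adjusted p = 0.575 and 0.634) for the other 2. Without wild-type replicate 1 or 3 it passed the test (0.63 and 0.71, adjusted p = 0.0497 and 0.013), and without replicate 2 it was 0.19 (adjusted p = 0.141). Over 12 endothelial marker genes, without Cd36, 9 were lower and 1 higher in wild-type mice at 22 h, and 8 lower and 1 higher in NOS2-/- mice. Over all probe sets 20% and 16% were lower and 12.8% and 11.6% higher. The mean level of the 12 marker genes was 11.78 to 11.91 in wild-type saline mice. At 7 h after LPS it was 10.32 to 10.40 in wild-type and 10.30 to 10.43 in NOS2-/- mice. At 22 h it was 10.76 to 10.94 and 10.64 to 10.66. From 7 h to 22 h in wild-type mice 8 of the 12 were higher and none lower (background 3.15% and 7.68%). Mean Cd36 in these mice was 11.23 at 7 h and 10.84 at 22 h, a step that was not called. The part of the endothelium in the fall of Cd36 was not tested.

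Plin2, perilipin 2, which coats lipid droplets in most cell types, was the member that rose in all 4 comparisons of LPS with saline. Wild-type mice read 11.82, 11.94, 12.04 and 11.94 after saline, 12.63, 12.52 and 12.53 at 7 h and 13.28, 13.04 and 13.08 at 22 h after LPS. These groups did not overlap, and the 22 h mice were the highest. The rise was 1.54-fold at 7 h (log2 fold change 0.63, SE 0.08, adjusted p = 8.72e-06) and 2.30-fold at 22 h (1.20, SE 0.08, adjusted p = 7.84e-09), the step from 7 h to 22 h being 0.57 (SE 0.08, adjusted p = 0.000286).

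Mice labelled NOS2-/- read 11.86 for Plin2 after saline, 12.39, 12.36 and 12.36 at 7 h and 12.19, 12.36 and 12.40 at 22 h. Both times lay above the saline mouse and overlapped each other. The rises were 0.51 (SE 0.11, adjusted p = 0.00407) and 0.46 (SE 0.11, adjusted p = 0.00694), and the change from 7 h to 22 h was -0.05 (95% confidence interval -0.23 to 0.12). At 22 h Plin2 was 1.76-fold lower than in wild-type mice (log2 difference -0.82, SE 0.08, adjusted p = 1.38e-05), with no overlap. The genotypes differed by -0.63 (adjusted p = 0.00917) in the change from 7 h to 22 h and by -0.74 (adjusted p = 0.00535) in the LPS response at 22 h. For that response 2 of 9 members were called higher (Pltp and Apoe, background 2.52%) and Plin2 lower (background 2.18%).

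Pltp, phospholipid transfer protein, which moves phospholipid from triglyceride-rich particles to high-density lipoprotein, fell in steps in wild-type mice. They read 12.67, 12.91, 12.73 and 12.86 after saline, 11.64, 11.62 and 11.62 at 7 h and 10.57, 9.70 and 10.58 at 22 h after LPS. The groups did not overlap, and replicate 2 was again the lowest at 22 h. The falls were 2.24-fold at 7 h (log2 fold change -1.16, SE 0.16, adjusted p = 4.01e-05) and 5.69-fold at 22 h (-2.51, SE 0.16, adjusted p = 1.06e-08), and without replicate 2 the latter was -2.21 (adjusted p = 1.58e-12). The other Pltp probe set gave -2.75 at 22 h (adjusted p = 5.38e-11). The step from 7 h to 22 h was called over all arrays, but limma fitted on these 2 groups alone missed the threshold (-1.345, adjusted p = 0.0528).

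In mice labelled NOS2-/- Pltp read 12.77 after saline, 11.73, 11.87 and 12.06 at 7 h and 11.75, 11.70 and 11.70 at 22 h. It fell by 0.88 (SE 0.25, adjusted p = 0.0164) and 1.06 (SE 0.25, adjusted p = 0.00428) and the change between the times was -0.17 (95% confidence interval -0.54 to 0.20). At 22 h Pltp was 2.70-fold higher than in wild-type mice (log2 difference 1.43, SE 0.17, adjusted p = 7.05e-05), and 1.14 (adjusted p = 1.88e-07) without wild-type replicate 2. The genotype difference was 1.17 (adjusted p = 0.0199) in the change from 7 h to 22 h and 1.45 (adjusted p = 0.0103) in the LPS response at 22 h. The former missed the threshold without wild-type replicate 2 or 3 at 7 h or NOS2-/- replicate 1 at 22 h (adjusted p 0.053 to 0.0557), and the other Pltp probe set gave 1.19 (adjusted p = 0.00163). Fitted on only the groups compared, both differences missed the threshold (adjusted p = 0.0603 and 0.0631).

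Apoe, the gene of apolipoprotein E, which macrophages and hepatocytes secrete and which carries lipoproteins to their receptors, fell at both times in both genotypes. Wild-type mice read 12.13, 12.00, 12.20 and 12.20 after saline, 11.02, 10.94 and 10.96 at 7 h and 10.55, 10.29 and 10.29 at 22 h after LPS. The groups descended without overlap, by 2.23-fold at 7 h (log2 fold change -1.16, SE 0.08, adjusted p = 1.09e-08) and 3.38-fold at 22 h (-1.76, SE 0.08, adjusted p = 1.48e-10). In mice labelled NOS2-/- Apoe read 12.15 after saline, 10.92, 11.06 and 10.96 at 7 h and 11.20, 11.09 and 11.09 at 22 h. It fell by 1.17 (SE 0.12, adjusted p = 2.57e-06) and 1.02 (SE 0.12, adjusted p = 8.5e-06). At 7 h the genotypes differed by 0.01 (95% confidence interval -0.16 to 0.18), and at 22 h Apoe was 1.69-fold higher in NOS2-/- mice (log2 difference 0.75, SE 0.08, adjusted p = 2.98e-05) with no overlap. The change from 7 h to 22 h differed by 0.74 (adjusted p = 0.003) and the LPS response at 22 h by 0.73 (adjusted p = 0.00656).

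Abca1, the transporter that loads cholesterol and phospholipid onto apolipoprotein A-I, was not called in any comparison fitted with equal weights over all 17 arrays as deposited. It read 10.78 to 10.98 in wild-type saline mice, 10.86 to 11.09 at 7 h and 11.21, 10.36 and 11.05 at 22 h after LPS, with changes of 0.09 and -0.02 (95% confidence interval at 22 h -0.38 to 0.33). In mice labelled NOS2-/- it read 10.64 after saline, 10.56 to 10.75 at 7 h and 10.18 to 10.73 at 22 h. The genotype difference at 22 h was -0.38 (95% confidence interval -0.76 to -0.01, adjusted p = 0.168). It passed the test after quantile normalization (-0.44, adjusted p = 0.0306), with array weights (-0.64, adjusted p = 0.00916) and without replicate 2 of the wild-type mice, the lowest of its group (-0.64, adjusted p = 0.000904). At 7 h the difference passed in the fit on the 2 groups alone (-0.31, adjusted p = 0.0238) and with array weights (-0.31, adjusted p = 0.0328).

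After saline the 1 mouse labelled NOS2-/- could be set beside the wild-type mice as values only. It lay above the range of the 4 wild-type saline mice for Adipoq (10.84 against 8.91 to 9.92), Fabp4 (11.47 against 9.64 to 10.74), Lpl and Cd36, below it for Abca1, and inside it for Plin2, Pltp, Lipe and Apoe. The same mouse read 12.51 for Car3, a carbonic anhydrase abundant in adipocytes, against 10.85 to 11.69, 9.29 for Cidea and 9.14 for Ucp1, which mark brown fat, against 7.45 to 7.86 and 7.77 to 8.18, and 11.89 for the muscle actin Acta1 against 6.48 to 6.81. How much other tissue in this lung sample bears on its Adipoq and Fabp4 was not tested.

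The other adipocyte genes did not all go with Adipoq. Of 19 measured genes of this list, 10 were lower and none higher in wild-type mice 22 h after LPS (background 20% and 12.8%), with a median log2 fold change of -0.31 beside -0.00 for all probe sets. Car3 fell by 3.58 (SE 0.28, adjusted p = 6.99e-08), Thrsp, a regulator of fatty acid synthesis, by 1.49 (SE 0.19, adjusted p = 1.41e-05), and G0s2, an inhibitor of adipose lipase, by 0.94 (SE 0.14, adjusted p = 8.34e-05). From 7 h to 22 h in wild-type mice only Car3 (-2.23, adjusted p = 0.000178) and Nnat (-0.52, adjusted p = 0.0214) of the 19 were called. That is 2 of 19 lower, near the 7.68% of all probe sets. At 22 h Car3 and Cidea were higher in mice labelled NOS2-/- (2.75 and 0.55, adjusted p = 2.7e-05 and 0.00739), and G0s2 and Pparg, the master receptor of adipocyte genes, were lower (-0.58 and -0.48, adjusted p = 0.0154 and 0.0302). That is 2 of 19 higher and 2 lower, near the 9.63% and 6.81% of all probe sets. The Pparg readings were 7.70, 8.31 and 7.57 in wild-type mice, with replicate 2 the highest, and 7.34 to 7.41 in NOS2-/- mice. All of them lay below the array medians of 8.46 to 8.55. Car3 was the 1 gene of the 19 whose change from 7 h to 22 h differed between genotypes (2.73, SE 0.42, adjusted p = 0.00262), where 2.49% of all probe sets were higher.

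**Figure D4:**
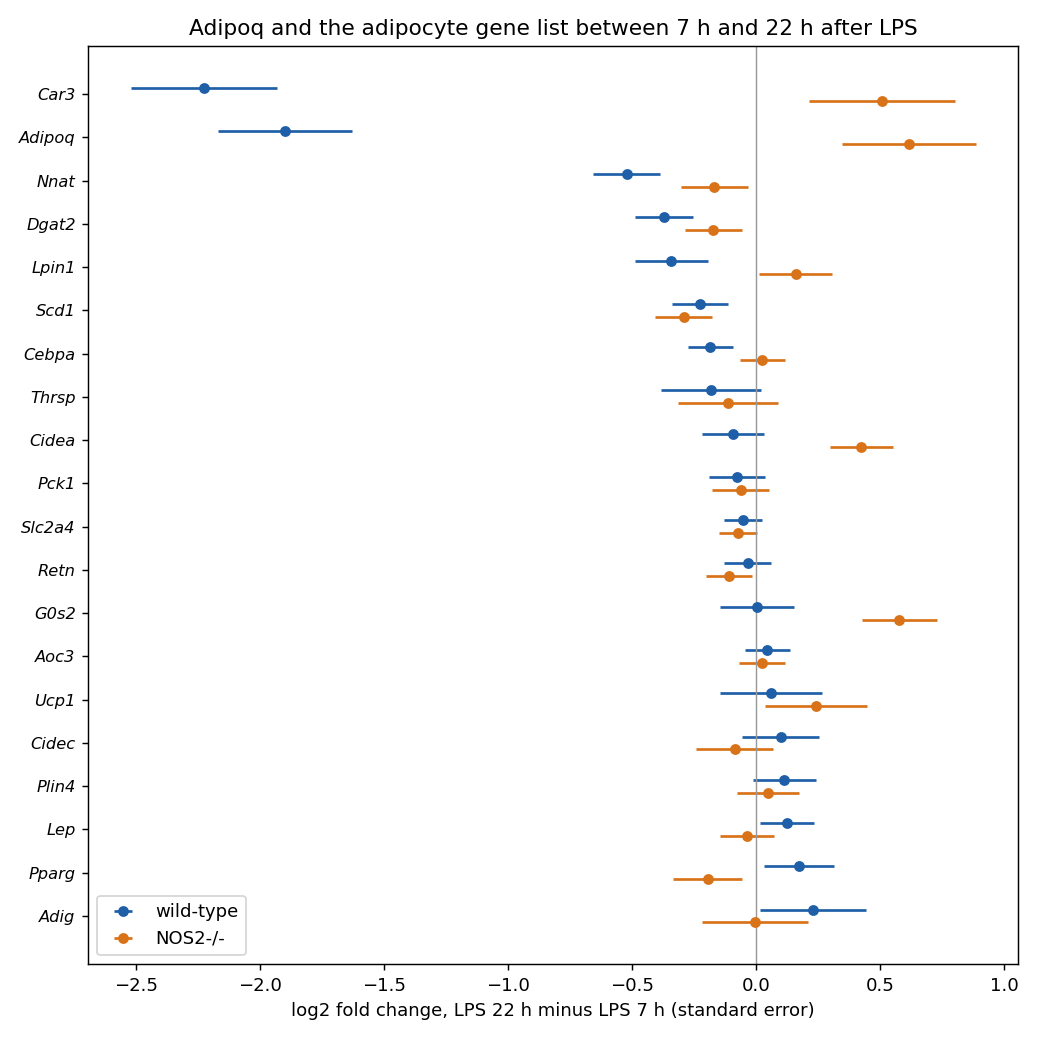
Log2 fold change from 7 h to 22 h after LPS (x axis, standard error bars) of Adipoq and the 19 measured genes of the adipocyte list (rows, ordered by the wild-type value), blue for wild-type and orange for NOS2-/- mice. In wild-type mice Car3 (-2.23) and Adipoq (-1.90) lie far to the left of the other genes.

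The mean level over the 19 adipocyte genes was higher in each NOS2-/- mouse 22 h after LPS (8.64 to 8.80) than in the wild-type mice (8.41 to 8.57). At 7 h the mean levels of the genotypes overlapped (8.62 to 8.75 and 8.62 to 8.68). Of the 19 genes 1 was called between the genotypes at 7 h, where 2.01% of all probe sets were called. It was G0s2, lower in NOS2-/- mice (log2 difference -1.16, SE 0.15, adjusted p = 0.00332). Without Car3 the 22 h means of the other 18 overlapped (8.56 to 8.70 and 8.43 to 8.60). The 5 brown fat genes measured read 8.73 to 8.96 in wild-type and 8.81 to 9.23 in NOS2-/- mice at 22 h. The list holds Dio2, a deiodinase, which read 12.09 to 12.78 and 11.58 to 11.86 in these mice, and the mean of the other 4 genes was 7.83 to 8.18 in wild-type and 8.12 to 8.58 in NOS2-/- mice. Ucp1 read 8.80 in NOS2-/- replicate 1, the mouse of that group with the highest Adipoq, and 8.04 and 8.18 in the other 2. Skeletal muscle genes (13 measured) read 6.95, 7.03 and 7.40 in wild-type mice at 22 h, replicate 2 being the highest. In NOS2-/- mice they read 7.10, 7.46 and 7.57, replicate 2 being the lowest. Of the 13 genes 2 were higher and none lower in NOS2-/- mice (background 9.63% and 6.81%). Acta1 read 8.04, 6.82 and 8.53 in NOS2-/- replicates 1, 2 and 3, and 6.66, 7.65 and 6.54 in wild-type replicates 1, 2 and 3. The part of fat or muscle tissue in the genotype difference of Adipoq was not tested.

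Among lipid droplet and lipolysis genes other than Plin2 and Lipe, more fell than rose in both genotypes. Of 10 measured, 6 were lower and 3 higher in wild-type mice 22 h after LPS, and 5 lower and 1 higher in NOS2-/- mice, where 20% and 16% of all probe sets were lower and 12.8% and 11.6% higher. Mgll, monoglyceride lipase, fell by 1.86 (SE 0.14, adjusted p = 4.39e-08) in wild-type and by 2.03 (SE 0.21, adjusted p = 3.03e-06) in NOS2-/- mice, and Plin3, another droplet coat protein, by 0.77 (adjusted p = 8.14e-06) and 1.31 (adjusted p = 4.25e-06). Abhd5, the co-activator of adipose triglyceride lipase, was lower in NOS2-/- than in wild-type mice at 22 h (-1.16, SE 0.09, adjusted p = 2.24e-06), as Plin2 was, and its change from 7 h to 22 h also differed (-0.77, adjusted p = 0.00482). Pnpla2, the gene of that lipase, went the other way and was higher in NOS2-/- mice at 22 h (0.52, SE 0.13, adjusted p = 0.0138). Of the 10 genes 1 was higher and 2 were lower in that comparison, where 9.63% of all probe sets were higher and 6.81% lower.

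Beside Lpl and Cd36, 15 genes of the lipoprotein lipase system and of fatty acid uptake were measured. In wild-type mice at 22 h 7 were lower and 3 higher, and in NOS2-/- mice 7 lower and 2 higher. Over all probe sets 20% were lower and 12.8% higher in the wild-type comparison and 16% and 11.6% in the NOS2-/- comparison. Angptl4, an inhibitor of lipoprotein lipase, rose by 0.80 (SE 0.16, adjusted p = 0.00129) in wild-type and by 1.60 (SE 0.25, adjusted p = 0.000169) in NOS2-/- mice. The NOS2-/- saline mouse read 9.97 for Angptl4, below the 10.56 to 11.40 of the wild-type saline mice, and against those mice the rise in NOS2-/- mice was 0.44 (adjusted p = 0.0431). Lipg, endothelial lipase, was higher in NOS2-/- than in wild-type mice at 22 h (0.84, SE 0.10, adjusted p = 7.34e-05). Vldlr, the receptor for very low density lipoprotein, fell by 0.94 (SE 0.07, adjusted p = 6.93e-08) in wild-type and by 1.14 (SE 0.11, adjusted p = 1.54e-06) in NOS2-/- mice.

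Of 16 genes of cholesterol efflux and high-density lipoprotein beside Pltp, Apoe and Abca1, 8 were lower and 1 higher in wild-type mice 22 h after LPS, and 7 lower and 2 higher in NOS2-/- mice. All probe sets gave 20% lower and 12.8% higher in wild-type and 16% and 11.6% in NOS2-/- mice, and the higher counts lay near that background. The higher gene in both was Ch25h, a cholesterol hydroxylase of activated macrophages, which rose by 2.39 (SE 0.15, adjusted p = 8.71e-09) and 2.86 (SE 0.23, adjusted p = 2.59e-07). Scarb1, the high-density lipoprotein receptor, differed between the genotypes at 22 h after LPS (1.5 higher in NOS2-/- mice on the log2 scale, SE 0.12, adjusted p = 2.1e-06). It read 11.40 to 11.47 in wild-type saline mice and 10.32, 9.79 and 10.30 at 22 h after LPS, and 10.96 in the NOS2-/- saline mouse and 11.64, 11.60 and 11.66 at 22 h. It fell by 1.31 (adjusted p = 1.44e-07) in wild-type mice and rose by 0.67 (adjusted p = 0.00564) in NOS2-/- mice, a difference of 1.98 (SE 0.20, adjusted p = 3.03e-05). The NOS2-/- saline mouse lay below every wild-type saline mouse, and against the wild-type saline mice the change in NOS2-/- mice was 0.18 (adjusted p = 0.202). Of 9 PPAR receptors and partners, 2 were lower and none higher in each genotype at 22 h, near the 20% and 16% lower over all probe sets. Pparg and Ppara were lower in NOS2-/- than in wild-type mice at 22 h (-0.48 and -0.33, adjusted p = 0.0302 and 0.0384). For Pparg, wild-type replicate 2 was the highest of its group (8.31 against 7.70 and 7.57), and all its readings in these mice lay below the array medians.

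Among the 12393 genes, the levels most like those of Adipoq over the 17 arrays were those of Car3 (Pearson r = 0.973), Clic3 (0.945) and Myl9 (0.935). For Pltp they were Sftpc (0.987), a surfactant gene of type 2 cells, Ogn (0.987) and Postn (0.985), for Apoe Ephx1 (0.987), Sort1 (0.986) and Mettl7a1 (0.983), for Plin2 Cldn2 (0.962), Mat1a (0.953) and Procr (0.952), and for Cd36 Hexa (0.982), Ehd4 (0.981) and Mgll (0.981). These arrays share groups, so the correlations hold the differences between groups. On the deviations of 16 arrays from their group means Adipoq and Fabp4 correlated at 0.811 and Adipoq and Pltp at 0.362.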

How the data were processed

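Lungs of 17 mice were profiled on Affymetrix MOE430A arrays. Values were deposited as log2 signals per probe set, made by the authors with affy; no source used here states its version or settings. The file holds 22690 probe sets, of which 64 controls were left out. The array medians lay between 8.46 and 8.55, and precision is limited by how many arrays there were. Groups came from the sample labels, which do not say that mice of a group were handled apart. Symbols came from the platform annotation, updated by Entrez identifier to GRCm38.p6.

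A linear model with 1 mean per group over all arrays was fitted in limma 3.58.1 (R 4.3.3) with empirical Bayes moderation, and p-values of 22626 probe sets received Benjamini-Hochberg adjustment. The code was tested on simulated data. All measured members are named. For each pathway list and comparison up to 4 called genes with the largest change were drawn up, and only some of these are named. The 3 genes most like a member in level are named for Adipoq, Pltp, Apoe, Plin2 and Cd36 only. The wild-type saline control for list genes and the list means without Car3 or Dio2 were added after the data were seen. Nos2, Acta1, Ucp1 and other values given by array, and genes added from the same lists, were chosen after their values were seen. Members and lists were chosen with earlier results of these data known. Alternatives were quantile normalization, array median centring, a low-signal filter at the 40th percentile, trended and robust moderation, array weights, a replicate block, the compared groups alone, the mean of a gene's probe sets, an adjusted p of 0.01, the wild-type saline mice as control for NOS2-/- mice, and leaving out each mouse.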

Additional observations from a re-analysis of the deposited data

Results flagged for a closer look

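A test of the difference between the genotypes picked out 4 members for their change from 7 h to 22 h after LPS and 3 for their LPS response at 22 h, each given as NOS2-/- minus wild-type on the log2 scale. For the change between the times the differences were 2.51 for Adipoq, 1.17 for Pltp, 0.74 for Apoe and -0.63 for Plin2. For the response at 22 h, which rests on 1 NOS2-/- saline mouse, they were 1.45 for Pltp, 0.73 for Apoe and -0.74 for Plin2.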

How the results depend on the processing

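Over 1422 values of single members under the alternatives, 1362 kept their side of the threshold, 28 newly passed it, 31 no longer passed it and 1 called value reversed its direction. Values called in neither fit were counted as kept even where their sign changed. Fabp4 in wild-type mice at 22 h, for example, ran from -0.08 to 0.29. The reversed value was Fabp4 in NOS2-/- mice 22 h after LPS, 0.26 with the wild-type saline mice as the control. For NOS2-/- against wild-type mice 7 h after LPS, 4 members were called with array weights and 4 with only the compared groups, against none otherwise. Array weights called 1 member between 7 h and 22 h in NOS2-/- mice and 5 for the genotype difference in the LPS response at 22 h, but their estimation stopped before it converged. The cause was not tested. Of 30 pairs of same-numbered mice, 4 had a correlation of their deviations from group means over 0.1 (range -0.385 to 0.362). The labels do not say whether the numbers pair mice, and with so few mice per group these correlations cannot decide it. The fit with a replicate block called 5 members in NOS2-/- mice 22 h after LPS, losing Fabp4 (-0.91, adjusted p = 0.0731) and Lipe (-0.40, adjusted p = 0.0539), and changed no other call. The NOS2-/- saline group held 1 mouse, so its spread was not measured.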
